A study of Mus musculus with 160 samples.

Results

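The 20 *Gata3*-GFP+ hematopoietic cell (HC) pools of the E10.5 aorta-gonads-mesonephros region (AGM) were ordered by log2((*Itga2b* count + 1)/(*Ptprc* count + 1)), and the 10 pools with the highest ratio were compared with the 10 pools with the lowest. The groups were thus chosen by the measured levels of 2 genes in the same libraries. *Itga2b* encodes CD41 and *Ptprc* encodes CD45. These 20 pools are 20 of 160 in the series, which holds 8 sorted populations with 20 pools of 20 cells each. Every embryo used carried 1 *Gata3*-GFP allele (*Gata3*-GFP +/-), in which GFP reports the activity of *Gata3*. HCs were sorted at E10.5 as GFP+ or GFP- cells that stained for CD41 or CD45, and the labels call the GFP+ population CD41+ CD45+. The labels do not say how the 2 stains compared in any 1 pool. The 20 *Gata3*-GFP- HC pools of the same stage were ordered by the same ratio and served as a population that the split had not used. Each population came from 3 to 5 biological replicates with cells of 2 to 6 embryos pooled in each, and the labels do not tie a pool to a replicate, so all p-values measure the spread between pools, which may be technical in part.

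CD41 is the alpha chain of the platelet fibrinogen receptor. In the embryo it marks megakaryocytes and platelets and also appears on the first hematopoietic progenitors that leave the endothelium, whereas CD45 is a tyrosine phosphatase of nearly all nucleated blood cells that comes up later in this course and is high on macrophages. The AGM is where definitive hematopoietic stem cells arise, and at this stage it also holds primitive megakaryocytes and yolk sac-derived macrophages. In a pool of 20 cells, a higher level of a gene can come from more cells that express it or from more RNA in each of them, and these cannot be told apart in these data.

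The ratio ran from −5.16 to 8.15 over the 20 *Gata3*-GFP+ pools, with a median of 0.0663. It ran from 0.128 to 8.15 with a median of 1.42 in the high-ratio pools, and from −5.16 to 0.00449 with a median of −1.17 in the low-ratio pools. These values chose the groups and carry no test. The pools on either side of the split were close, at 0.128 for the pool ranked 10 and 0.00449 for the pool ranked 11. The pool ranked 1 stood apart with 4245 *Itga2b* and 14 *Ptprc* counts, and the next had a ratio of 2.92. At the other end, the pool ranked 20 had 18 *Itga2b* and 676 *Ptprc* counts. CPM levels here are counts scaled to a common library total by TMM normalization, which leaves out extreme genes, over the 40 HC pools, and are not corrected for gene length. *Itga2b* (ENSMUSG00000034664, chr11:102453297-102470122, minus strand) had a lowest, median and highest level of 208, 355 and 1266 CPM in the high-ratio pools and of 8.86, 97.5 and 289 CPM in the low-ratio pools. *Ptprc* (ENSMUSG00000026395, chr1:138062861-138175708, minus strand) had 4.18, 144 and 205 CPM in the high-ratio pools and 149, 240 and 333 CPM in the low-ratio pools. *Ptprc* has 18313 exon bases and *Itga2b* 5454, so a ratio near 0 does not stand for equal numbers of transcripts. All 20 pools held RNA of both genes, so the groups differ in bias and are not pure CD41 or CD45 populations.

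In the *Gata3*-GFP- HC pools the ratio ran from −8.96 to −1.52 with a median of −5.54. Of the 20 *Gata3*-GFP+ pools, 16 had a ratio above every *Gata3*-GFP- pool, and 9 *Gata3*-GFP- pools lay within the range of the *Gata3*-GFP+ pools. The span of the ratio in the GFP+ population therefore covers a stretch that the GFP- population did not reach.

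**Figure D1:**
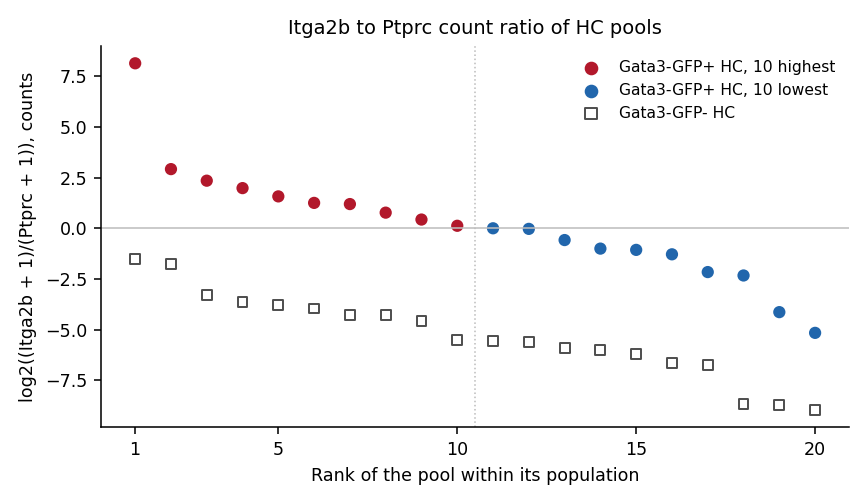
The log2 ratio of *Itga2b* to *Ptprc* counts (y axis, pseudocount 1) for each pool by its rank within its own population (x axis, 1 = highest), with 20 *Gata3*-GFP+ and 20 *Gata3*-GFP- HC pools as points. The *Gata3*-GFP+ pools fall from 8.15 to −5.16 and 16 of them lie above every *Gata3*-GFP- pool.

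A *Gata3*-GFP+ pool held 1460179 to 16004756 counts on genes, 3180193 at the median, and all 40 HC pools passed the quality limits of the study. The groups did not differ past an adjusted p of 0.05 in counts on genes, genes detected at 10 counts, share of ERCC RNA (a spike-in mix) or ratio of gene to ERCC counts (two-sided permutation tests with 100000 resamples, adjusted p from 0.357 to 0.394 over 6 comparisons). The share of counts on mitochondrial genes was 6.15% ± 0.96 (SD, n = 10) in the high-ratio pools and 7.16% ± 0.65 (n = 10) in the low-ratio pools (permutation p = 0.0085, adjusted p = 0.0335). Reads that overlapped several genes made up 26.2% ± 1.14 (SD, n = 10) of assigned reads in the high-ratio pools and 27.7% ± 1.32 (n = 10) in the low-ratio pools (permutation p = 0.0112, adjusted p = 0.0335). The pool ranked 9 had the highest count and the lowest mitochondrial share of its group, 3.95%, and the pool ranked 10 had the highest ERCC share, 2.03%. The part of these differences in the results was not tested.

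These 6 promoters are shown because they lie before genes on which the comparison turns: *Itga2b*, which ranked the pools, 4 platelet genes that rose in the high-ratio pools, and *C1qb*, a macrophage gene that tended the other way. Each window holds 250 bases before and 50 bases after a RefSeq transcription start on GRCm38.p6, is read 5′ to 3′ on the strand of the gene, and has in capitals any match, on either strand, to AGATAA or TGATAA (letters bound by GATA factors), TGTGGT (RUNX factors) or GAGGAAGT (ETS factors such as PU.1).

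The windows are chr11:102469834-102470133 (minus strand) for *Itga2b*, chr5:90772185-90772484 (plus) for *Pf4*, chr6:87777820-87778119 (plus) for *Gp9*, chr7:4397695-4397994 (minus) for *Gp6*, chr6:129397047-129397346 (plus) for *Clec1b* and chr4:136886151-136886450 (minus) for *C1qb*.
Itga2b: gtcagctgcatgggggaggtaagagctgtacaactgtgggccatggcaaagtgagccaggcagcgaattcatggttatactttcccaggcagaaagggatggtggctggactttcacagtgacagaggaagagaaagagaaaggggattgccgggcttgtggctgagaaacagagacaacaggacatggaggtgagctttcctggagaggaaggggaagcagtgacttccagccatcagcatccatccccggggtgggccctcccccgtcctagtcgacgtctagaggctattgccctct
Pf4: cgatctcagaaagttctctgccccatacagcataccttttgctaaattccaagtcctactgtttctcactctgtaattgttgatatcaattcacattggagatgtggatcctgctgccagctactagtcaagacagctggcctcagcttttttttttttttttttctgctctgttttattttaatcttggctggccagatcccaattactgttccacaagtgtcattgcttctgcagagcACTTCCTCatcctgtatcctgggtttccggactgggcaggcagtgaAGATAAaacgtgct
Gp9: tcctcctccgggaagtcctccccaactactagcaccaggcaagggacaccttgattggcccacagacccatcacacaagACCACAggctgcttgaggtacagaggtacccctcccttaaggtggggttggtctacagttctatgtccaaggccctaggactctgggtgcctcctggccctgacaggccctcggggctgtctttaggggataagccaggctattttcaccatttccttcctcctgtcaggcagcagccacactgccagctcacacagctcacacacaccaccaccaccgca
Gp6: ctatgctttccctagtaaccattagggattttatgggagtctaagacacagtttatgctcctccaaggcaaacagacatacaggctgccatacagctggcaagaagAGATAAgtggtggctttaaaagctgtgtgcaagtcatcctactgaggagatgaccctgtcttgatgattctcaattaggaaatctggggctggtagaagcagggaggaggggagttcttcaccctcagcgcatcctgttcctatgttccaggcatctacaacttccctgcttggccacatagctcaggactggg
Clec1b: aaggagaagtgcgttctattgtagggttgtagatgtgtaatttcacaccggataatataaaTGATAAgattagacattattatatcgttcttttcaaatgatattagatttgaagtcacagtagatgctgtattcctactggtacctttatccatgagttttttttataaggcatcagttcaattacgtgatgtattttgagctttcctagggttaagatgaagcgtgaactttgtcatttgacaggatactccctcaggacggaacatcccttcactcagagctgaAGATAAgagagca
C1qb: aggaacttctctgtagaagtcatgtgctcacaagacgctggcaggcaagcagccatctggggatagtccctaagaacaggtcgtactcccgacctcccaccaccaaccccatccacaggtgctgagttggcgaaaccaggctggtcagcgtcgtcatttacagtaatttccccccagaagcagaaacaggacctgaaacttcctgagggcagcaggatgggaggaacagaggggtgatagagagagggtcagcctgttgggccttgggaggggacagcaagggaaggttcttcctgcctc

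Counting from the start site, AGATAA began at position 37 in *Pf4*, −144 in *Gp6* and 38 in *Clec1b*, and TGATAA began at −189 in *Clec1b*. *Pf4* also held GAGGAAGT on the opposite strand from position −10, and *Gp9* held TGTGGT on the opposite strand from −171. None of these letters stood in the windows of *Itga2b* and *C1qb*, which says nothing about sites elsewhere. AGATAA or TGATAA stood in 10 of 32 windows of the megakaryocyte and platelet list (31.2%, windows found for 29 of 35 genes) and in 4 of 31 windows of the macrophage list (12.9%, 26 of 40 genes). Among the 84 genes that rose in the high-ratio pools it stood in 19 of 98 windows (19.4%, 69 genes matched), against 1303 of 12573 windows (10.4%) of all genes tested and 6115 of 32851 windows (18.6%) in the whole table. A match is a description of the letters and not a bound site.

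Between the groups, 84 of 14497 genes were higher in the high-ratio pools (0.579% of genes tested) and 10 were lower (0.069%), in edgeR (quasi-likelihood test, Benjamini-Hochberg adjusted p under 0.01). *Itga2b* and *Ptprc* were left out of the test, and no gene shared exon bases with either. At an adjusted p under 0.05 the counts were 370 higher (2.55%) and 115 lower (0.793%). The median log2 difference of all genes tested was 0.02. In all, 14 genes had all 10 high-ratio pools above all 10 low-ratio pools (0.0966% of genes tested) and 6 had the reverse order (0.0414%). The lists with the most rises were those of megakaryocytes and platelets, with 8, and of integrins, with 6, and of the falls 1 was in a list. Of the 84 genes that rose, 81 had their highest level of the 20 pools in the pool ranked 1, and 32 had over 2 times the level of the pool ranked 2 there. Without the pool ranked 1, 44 genes were higher and 17 lower. Without the pools ranked 1 and 20, a choice made after the data were seen, 22 were higher and 8 lower. The 94 calls became 61, 24, 43, 62, 25, 200 and 150 without the pools ranked 1, 2, 4, 6, 8, 9 and 12, and 31, 16, 1, 59, 6, 1, 20 and 56 without the pools ranked 13 to 20, while those of the 94 genes that were tested kept their sign and an adjusted p under 0.05 without any 1 of the 20 pools (edgeR). Scaled to ERCC RNA in place of TMM, 0 genes passed (lowest adjusted p 0.0832, 1559 genes with an unadjusted p under 0.05, edgeR), the median of all genes moved to −0.15, and the 94 genes kept their sign. The count also depended on which marker split the pools: by *Itga2b* alone, 257 genes were higher and 8 lower, and by *Ptprc* alone, 0 genes passed (lowest adjusted p 0.0302, 1340 genes with an unadjusted p under 0.05, edgeR).

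Genes of megakaryocytes and platelets were the group with the highest median. All 35 listed genes were tested, 8 rose (*Pf4*, *Ppbp*, *Gp9*, *Gp6*, *Clec1b*, *Cd9*, *Plek* and *Fermt3*) where 0.579% of genes tested did, 0 fell, and 28 passed in the upward direction at an adjusted p under 0.05, where 2.55% of genes tested did. The median log2 difference was 2.0, with 32 of 35 genes positive against 52.1% of all genes tested. *Itga2b*, which ranked the pools, is itself a gene of megakaryocytes, so this list is not independent of the ranking. With the pools split by *Itga2b* alone, 23 listed genes rose, with a median of 2.17 and 33 positive. With *Ptprc* alone, 0 rose, with a median of 1.20 and 31 positive (adjusted p under 0.01, edgeR). The summed level of the list was 10984, 32257 and 80286 CPM (lowest, median and highest) in the high-ratio pools and 3131, 7101 and 17510 CPM in the low-ratio pools. Of the high-ratio pools, 8 lay above every low-ratio pool, and the pools ranked 3 and 9, at 16243 and 10984 CPM, lay within the range of the low-ratio pools. In the 20 *Gata3*-GFP- HC pools the sum was 1413, 2369 and 6828 CPM, and every low-ratio *Gata3*-GFP+ pool was above that median.

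The granule chemokine *Pf4* (ENSMUSG00000029373, chr5:90772435-90773383), which encodes platelet factor 4, had 5056, 14891 and 35908 CPM (lowest, median and highest) in the high-ratio pools and 1153, 3531 and 10299 CPM in the low-ratio pools. Its log2 difference was 1.85 (SE 0.36, adjusted p = 0.00794 by edgeR). In 8 high-ratio pools it was above every low-ratio pool, and the groups overlapped through the other two. *Ppbp* (ENSMUSG00000029372, chr5:90768518-90770063), the neighbouring gene for pro-platelet basic protein, had 575, 3119 and 10926 CPM in the high-ratio pools and 65.0, 278 and 2379 CPM in the low-ratio pools, a log2 difference of 2.93 (SE 0.57, adjusted p = 0.00807 by edgeR). In 9 high-ratio pools *Ppbp* was above every low-ratio pool, and 1 high-ratio pool lay within their range.

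Of the platelet receptor genes, *Gp9* and *Gp6* had groups of pools that did not overlap. *Gp9* (ENSMUSG00000030054, chr6:87778072-87779768), a subunit of the von Willebrand factor receptor, had 333, 683 and 2208 CPM in the high-ratio pools and 15.7, 102 and 316 CPM in the low-ratio pools. The groups did not overlap, with a log2 difference of 2.77 (SE 0.47, adjusted p = 0.00485 by edgeR). *Gp6* (ENSMUSG00000078810, chr7:4363965-4397744), the collagen receptor, also did not overlap, with 39.8, 148 and 250.8 CPM in the high-ratio pools and 0.492, 16.6 and 39.0 CPM in the low-ratio pools. Its log2 difference was 3.14 (SE 0.51, adjusted p = 0.00428 by edgeR). *Clec1b* (ENSMUSG00000030159, chr6:129397297-129409335), which encodes the podoplanin receptor CLEC-2 and shares 3.61% of its exon bases with *Clec9a*, had 176, 531 and 1386 CPM against 16.2, 66.8 and 280 CPM, a log2 difference of 2.48 (SE 0.44, adjusted p = 0.00508 by edgeR). Among the high-ratio pools, 8 exceeded all low-ratio pools for *Clec1b*.

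The tetraspanin gene *Cd9* rose by 2.17 on the log2 scale (SE 0.35, adjusted p = 0.00367 by edgeR), from a median of 181 CPM in the low-ratio pools to 883 CPM in the high-ratio pools, and shares 10.7% of its exon bases with *Gm26728*. *Plek*, which encodes pleckstrin, a protein kinase C substrate of platelets, rose by 1.65 (SE 0.31, adjusted p = 0.00628 by edgeR) and shares 4.44% of its exon bases with *Cnrip1*. *Fermt3*, which encodes kindlin-3, an activator of integrins in blood cells, rose by 1.36 (SE 0.25, adjusted p = 0.00606 by edgeR). Another 2 genes of receptors or ligands did not pass 0.01. *Itgb3*, the partner chain of CD41, had 301, 734 and 1932 CPM in the high-ratio pools and 8.86, 160 and 574 CPM in the low-ratio pools (log2 difference 2.0, SE 0.50, adjusted p = 0.0281 by edgeR). *Vwf*, the gene for von Willebrand factor, had a log2 difference of 2.05 (SE 0.44, adjusted p = 0.0131). The listed gene that went furthest the other way was *P2ry12*, the ADP receptor that platelets share with some macrophages, with a median of 37.1 CPM in the high-ratio pools and 50.9 CPM in the low-ratio pools (log2 difference −0.93, SE 0.35, adjusted p = 0.157 by edgeR). With the ratio as a number in place of the groups, 29 of the 35 genes rose and *P2ry12* fell (adjusted p = 0.00157 by edgeR, where 2.92% and 1.93% of genes tested rose and fell). The pool ranked 1 stood apart in ratio, and its part in these slopes was not tested.

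**Figure D2:**
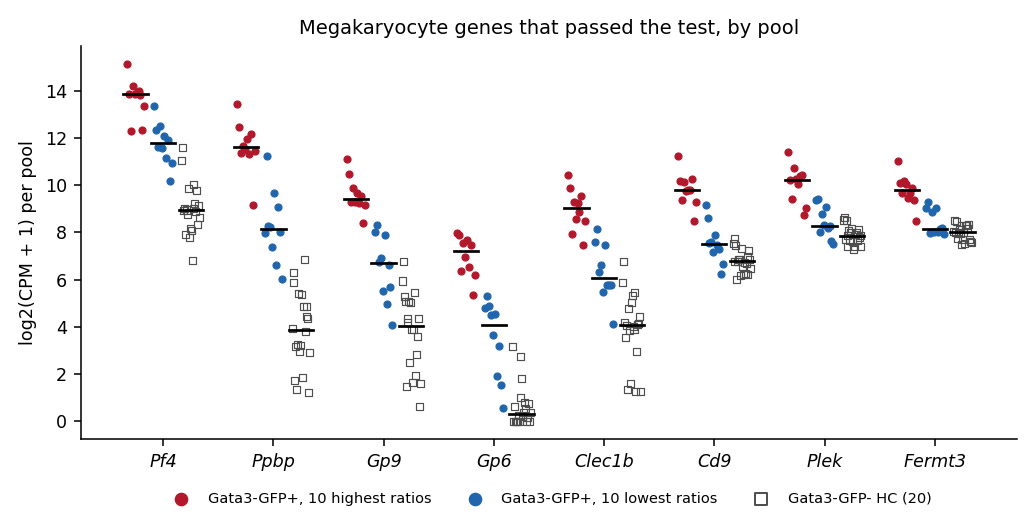
Levels of the 8 megakaryocyte and platelet genes that rose (x axis) as log2(CPM + 1) (y axis), with 1 point for each of the 10 high-ratio and 10 low-ratio *Gata3*-GFP+ HC pools, open squares for the 20 *Gata3*-GFP- HC pools and a bar at the median of each group. *Gp9* and *Gp6* show no overlap between the high-ratio and low-ratio pools.

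The integrin list holds integrin subunits and genes of CD41 signalling, among them those of proteins that couple integrins to actin. It was thus built in part around the product of *Itga2b*, which ranked the pools, and *Fermt3* is also in the megakaryocyte and platelet list. In all, 36 of its 41 genes were tested. Of these, 6 rose (*Tln1*, *Fermt3*, *Zyx*, *Vcl*, *Lims1* and *Itgb2*) and 0 fell, where 0.579% of genes tested rose, and the median log2 difference was 0.37, with 24 genes positive. *Tln1* (ENSMUSG00000028465, chr4:43531519-43562691), which encodes talin 1, the protein that binds and activates integrin tails, had 446, 701 and 1881 CPM in the high-ratio pools and 223, 316 and 637 CPM in the low-ratio pools. Its log2 difference was 1.20 (SE 0.22, adjusted p = 0.00546 by edgeR), 8 high-ratio pools were above every low-ratio pool, and *Creb3* overlaps 3.67% of its exon bases. *Zyx*, which encodes the focal adhesion protein zyxin, rose by 1.54 (SE 0.28, adjusted p = 0.00597 by edgeR), with medians of 816 and 213 CPM. *Lims1*, which encodes PINCH1, a partner of integrin-linked kinase, rose by 1.57 (SE 0.31, adjusted p = 0.00859 by edgeR), with medians of 1128 and 302 CPM.

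*Vcl*, which encodes vinculin and shares 25.5% of its exon bases with *Ap3m1*, rose by 1.89 (SE 0.36, adjusted p = 0.00695 by edgeR). *Itgb2*, the beta chain of the leukocyte integrins, rose by 1.21 (SE 0.24, adjusted p = 0.00827 by edgeR), with 9 high-ratio pools above every low-ratio pool. The integrin genes did not move as 1 block, since 12 of the 36 were negative. *Itgb5*, a subunit that pairs with the alpha v chain, had 19.4, 30.4 and 55.1 CPM in the high-ratio pools and 45.4, 66.7 and 111 CPM in the low-ratio pools (log2 difference −1.04, SE 0.21, adjusted p = 0.0103 by edgeR). In 8 low-ratio pools *Itgb5* was above every high-ratio pool. Without the pool ranked 1, 4 megakaryocyte and platelet genes and 2 integrin genes rose, and without the pools ranked 1 and 20, 3 and 0 did. Over the 20 single pools left out, these counts ran from 0 (pools ranked 15, 17 and 18) to 15 (pool ranked 12) for the megakaryocyte and platelet list, whose median stayed between 1.75 and 2.17, and from 0 to 9 for the integrin list.

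Macrophage genes took the opposite direction but did not pass the same threshold. Of 39 tested genes of 40 listed, 0 rose and 0 fell at an adjusted p under 0.01, 4 fell at 0.05 (where 0.793% of genes tested fell), and 37 were negative, with a median log2 difference of −1.07. The 0 falls at 0.01 became 4 by DESeq2's Wald test, 2 without the pool ranked 1 and 1 without the pools ranked 1 and 20, and stayed at 0 without any other 1 of the 20 pools (edgeR). Their summed level was 2461, 6840 and 12178 CPM in the high-ratio pools and 9182, 13365 and 23241 CPM in the low-ratio pools. Of the low-ratio pools, 7 exceeded every high-ratio pool. The lowest sum, 2461 CPM, belonged to the pool ranked 1, which also had the lowest level of the 20 pools for 31 of the 39 genes, and the highest belonged to the pool ranked 20. In the *Gata3*-GFP- HC pools the sum was 12730, 16863 and 22021 CPM.

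*C1qb* (ENSMUSG00000036905, chr4:136880129-136886187), a chain of complement C1q, had 15.5, 664 and 1659 CPM in the high-ratio pools and 1264, 1738 and 3288 CPM in the low-ratio pools. Its log2 difference was −1.28 (SE 0.41, adjusted p = 0.0943 by edgeR), and 6 low-ratio pools were above every high-ratio pool. *Csf1r*, the receptor on which macrophages depend, had 9.54, 229 and 517 CPM against 370, 555 and 1023 CPM (log2 difference −1.17, SE 0.38, adjusted p = 0.0943), and shares 15.1% of its exon bases with *Hmgxb3*. The genes that fell at an adjusted p under 0.05 include *Ctss*, which encodes the lysosomal protease cathepsin S (log2 difference −1.12, SE 0.31, adjusted p = 0.0481 by edgeR), and *Laptm5*, a lysosomal membrane protein of blood cells (−0.50, SE 0.12, adjusted p = 0.0219). The others were *Aif1*, which encodes the calcium-binding protein IBA1 (−1.36, SE 0.37, adjusted p = 0.0450), and the IgG receptor gene *Fcgr1* (−1.24, SE 0.34, adjusted p = 0.0456). *C1qb* and *Csf1r* were above 0 in all 20 pools, at 15.5 and 9.54 CPM in the pool ranked 1.

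The macrophage calls depended on how the ratio entered the fit. With the log2 ratio as a number over all 20 pools, 23 of the 39 genes fell and 0 rose (adjusted p under 0.01, edgeR, where 1.93% of genes tested fell). The pool ranked 1, with a ratio of 8.15 against 2.92 for the next, was in this fit. It had the lowest level of the 20 pools for 31 of the 39 genes, and its part in the slopes was not tested. *Tyrobp*, the adaptor of activating myeloid receptors, had 16.4, 684 and 852 CPM in the high-ratio pools and 679, 984 and 1846 CPM in the low-ratio pools, with an adjusted p of 0.154 between the groups and of 9.84e-05 along the ratio (edgeR). *Spi1*, which encodes the myeloid factor PU.1, had an adjusted p of 0.195 between the groups and 0.00196 along the ratio. The mannose receptor gene *Mrc1* had a log2 difference of −1.53 between the groups (SE 0.44, adjusted p = 0.0541). The lysosome and phagocytosis list was also lower in direction, with 0 of 36 tested genes passing between the groups, 8 falling at 0.05 (0.793% of genes tested) and 21 falling along the ratio (1.93% of genes tested, edgeR). The 0 falls between the groups became 9 by DESeq2's Wald test, and 3, 4 and 1 without the pools ranked 1, 5 and 10 (edgeR). *Ctsh*, which encodes cathepsin H, had 4.47, 31.3 and 99.0 CPM in the high-ratio pools and 84.2, 137 and 218 CPM in the low-ratio pools (log2 difference −1.67, SE 0.36, adjusted p = 0.0131). *Lgmn*, the gene for the protease legumain, differed by −1.41 (SE 0.32, adjusted p = 0.0166 by edgeR).

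**Figure D3:**
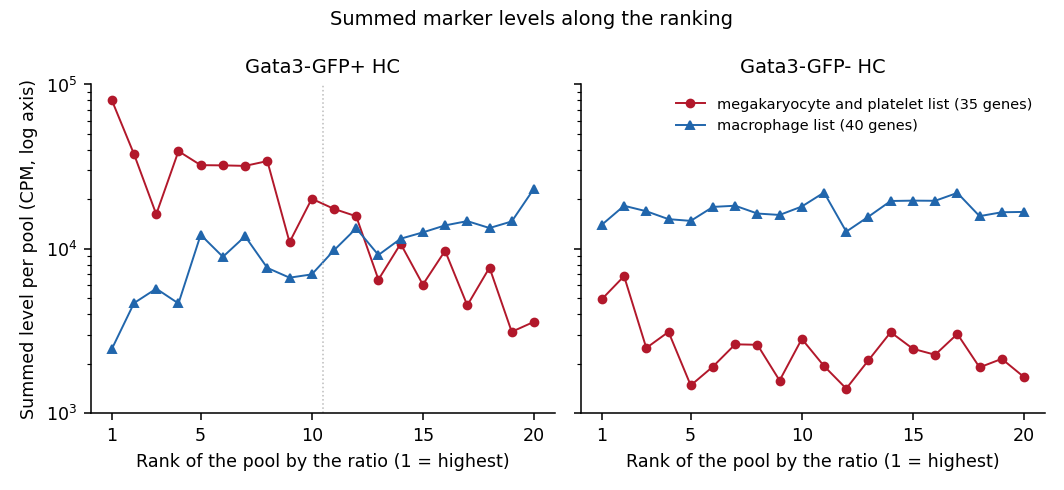
Summed CPM (y axis, log scale) of the 35 megakaryocyte and platelet genes and the 40 macrophage genes in each pool by the rank of its *Itga2b* to *Ptprc* ratio (x axis, 1 = highest), for *Gata3*-GFP+ HCs on the left and *Gata3*-GFP- HCs on the right. In *Gata3*-GFP+ pools the platelet sum goes from 80286 CPM at rank 1 to 3601 CPM at rank 20 while the macrophage sum goes from 2461 to 23241 CPM. The order between these ends is not strict. The platelet sum is 10984 CPM at rank 9 and 17510 CPM at rank 11, and the macrophage sum 12178 CPM at rank 5 and 9182 CPM at rank 13.

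The other rises and falls with the largest size are outside these lists for the most part, as 75 of the 94 called genes are in no list. The rises of the largest size among genes that had 10 or more counts in 8 or more high-ratio pools were those of *Slc6a4*, *Gp6*, *Ppbp*, *Gp9*, *Elovl7*, *Pls1*, *Capn3*, *Clec1b*, *Clu* and *Tuba4a*. *Slc6a4* (ENSMUSG00000020838, chr11:76998603-77032340), the serotonin transporter with which platelets take up serotonin, had 1.24, 75.2 and 258 CPM in the high-ratio pools and 0.326, 2.76 and 26.5 CPM in the low-ratio pools (log2 difference 3.93, SE 0.76, adjusted p = 0.00750 by edgeR). The groups overlapped, with 7 high-ratio pools above every low-ratio pool. *Capn3* (chr2:120456019-120504913), a calcium-dependent protease best known from muscle, had 79.6, 155 and 500 CPM against 1.97, 22.4 and 63.9 CPM with no overlap (log2 difference 2.58, SE 0.41, adjusted p = 0.00367), and shares 7.68% of its exon bases with *Ganc*. *Clu*, which encodes the secreted chaperone clusterin, rose by 2.47 (SE 0.42, adjusted p = 0.00486 by edgeR), with medians of 603 and 113 CPM. *Tuba4a*, an alpha-tubulin gene that shares 37.3% of its exon bases with *Stk16*, rose by 2.44 (SE 0.44), *Elovl7*, a fatty acid elongase, by 2.67 (SE 0.52), and *Pls1*, the actin-bundling plastin 1, by 2.64 (SE 0.52).

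Of the genes that fell, 9 had 10 or more counts in 8 or more low-ratio pools. *Scpep1* (ENSMUSG00000000278, chr11:88924020-88955465), a serine carboxypeptidase that shares 4.58% of its exon bases with *Scpep1os*, had 38.1, 45.2 and 77.0 CPM in the high-ratio pools and 87.1, 111 and 140 CPM in the low-ratio pools. The groups did not overlap, and its adjusted p was the lowest of all genes (log2 difference −1.22, SE 0.13, adjusted p = 3.61e-05 by edgeR). *Gdi2* (ENSMUSG00000021218, chr13:3538063-3567871), a regulator of Rab GTPases that shares 11.2% of its exon bases with *Fam208b*, also did not overlap, with 268, 398 and 498 CPM in the high-ratio pools and 500.0, 577 and 684 CPM in the low-ratio pools. Its log2 difference was −0.54 (SE 0.11, adjusted p = 0.00804 by edgeR). *Casp8*, the initiator caspase of death receptors, fell by 1.20 on the log2 scale (SE 0.21, adjusted p = 0.00498 by edgeR), with medians of 38.2 and 82.3 CPM.

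The other members of this group were *Sfxn5*, a mitochondrial carrier, at −1.39, *Ntpcr*, a nucleotide triphosphatase, at −1.09, and *Abhd12*, a lipid hydrolase, at −0.93. *Nme4*, a mitochondrial nucleoside diphosphate kinase, was at −0.91, *Gmnn* at −0.82 and *Fam49b*, a Rac-binding actin regulator, at −0.70. All 9 were lower in the pool ranked 1 than the median of the low-ratio pools. *Il17f*, a cytokine gene, had the lowest log2 difference of all but rested on few counts, with 0, 0 and 0.247 CPM in the high-ratio pools and 0, 1.30 and 33.0 CPM in the low-ratio pools.

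Regulators of the endothelial-to-hematopoietic transition (EHT) and of stem cells showed 1 rise among 46 of 47 genes tested (0.579% of all genes tested rose), and 7 genes passed upward at an adjusted p under 0.05 (2.55% of all genes tested, edgeR), with a median log2 difference of 0.51. The rise was *Myct1* (ENSMUSG00000046916, chr10:5593775-5606904), a membrane protein gene of endothelium and stem cells, with 17.3, 72.5 and 215 CPM in the high-ratio pools and 2.46, 17.1 and 36.4 CPM in the low-ratio pools (log2 difference 2.21, SE 0.41, adjusted p = 0.00569 by edgeR). The transcription factor genes *Tal1*, *Gfi1b* and *Fli1*, which megakaryocytes also use, and the stem cell factor *Mllt3* were among those that passed at 0.05. *Gfi1b* had 27.3, 114 and 270 CPM in the high-ratio pools and 0.984, 34.5 and 61.9 CPM in the low-ratio pools (log2 difference 1.76, SE 0.49, adjusted p = 0.0478), and *Lmo2*, the bridging partner of *Tal1*, differed by 1.04 (SE 0.21, adjusted p = 0.0103).

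Genes that stage hematopoietic precursors differed less. *Gata3* itself had 15.6, 51.1 and 142 CPM in the high-ratio pools and 11.6, 40.6 and 56.0 CPM in the low-ratio pools (log2 difference 0.62, SE 0.34, adjusted p = 0.392 by edgeR), and the groups overlapped for 8 of the 10 high-ratio pools. *Runx1*, the master regulator of EHT, had medians of 81.1 and 83.4 CPM (log2 difference −0.14, SE 0.25, adjusted p = 0.863). *Kit*, the stem cell factor receptor, had medians of 18.2 and 26.1 CPM (−0.15, SE 0.67, adjusted p = 0.950), and *Cdh5*, the endothelial cadherin, of 8.63 and 9.16 CPM (−0.08, SE 0.36, adjusted p = 0.950). *Spn* encodes CD43, which in the staging used by the study is gained after CD41 and before CD45. *Spn* was low in most pools, with medians of 1.48 and 0.774 CPM (0.54, SE 1.02, adjusted p = 0.870 by edgeR). *Gata2*, *Gfi1*, *Mecom*, *Hoxa10* and *Meis1* had adjusted p-values of 0.604, 0.702, 0.320, 0.968 and 0.319 (edgeR), and *Sox17* had too few counts to be tested. *Meis1* ran from 100 to 164 CPM in the high-ratio pools and from 18.7 to 139 CPM in the low-ratio pools. In the same order, *Mecom* ran from 1.79 to 58.8 and from 0.780 to 15.3 CPM, and *Gata2* from 5.95 to 33.2 and from 0 to 53.3 CPM. The wide standard errors of *Spn*, *Kit*, *Gfi1* (1.09) and *Hoxa10* (0.72) leave differences of either sign within reach, so a similar level in both groups was not shown. Nor was a similar level shown for *Gata2*, *Mecom* and *Meis1*.

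The cell cycle lists parted by phase. All 40 S phase genes were negative, against 47.9% of all genes tested, with a median log2 difference of −0.61, 1 fell (where 0.069% of genes tested fell) and 4 fell at 0.05. The 1 was *Gmnn* (ENSMUSG00000006715, chr13:24751845-24761923), the gene for the replication licensing inhibitor geminin, with 53.9, 83.8 and 141 CPM in the high-ratio pools and 115, 147 and 202 CPM in the low-ratio pools (log2 difference −0.82, SE 0.14, adjusted p = 0.00485 by edgeR). *Rad51ap1*, a homologous recombination gene, had medians of 18.3 and 46.3 CPM (−1.37, SE 0.31, adjusted p = 0.0186). The 51 G2 and M phase genes had a median of 0.00, with 26 positive, and 0 passed. Along the ratio as a number, 0 S phase genes passed at 0.01 (edgeR).

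Of the 23 tested brakes and G1 regulators (25 listed), 2 rose (0.579% of all genes tested did), while 13 of the 23 were negative and the median log2 difference was −0.12. *Ccnd3* (ENSMUSG00000034165, chr17:47505051-47599691), the G1 cyclin D3, which shares 4.11% of its exon bases with *Bysl*, had 231, 359 and 646 CPM in the high-ratio pools and 64.0, 167 and 222 CPM in the low-ratio pools with no overlap (log2 difference 1.22, SE 0.20, adjusted p = 0.00432 by edgeR). *Cdkn2d*, the inhibitor p19 of the G1 kinases, had 112, 297 and 656 CPM against 22.6, 65.0 and 149 CPM (log2 difference 1.73, SE 0.34, adjusted p = 0.00804). *Cdkn1c*, the inhibitor p57, had medians of 170 and 273 CPM and ranges of 63.8 to 1167 CPM and 37.4 to 606 CPM (log2 difference 0.24, SE 0.53, adjusted p = 0.889 by edgeR), and shares 30.7% of its exon bases with *Gm44732*. The high-ratio pools ranked 2 and 9 held the most *Cdkn1c*, 1167 and 798 CPM. Without the pool ranked 2 the log2 difference was −0.22, so its sign rested on single pools.

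Markers of other cells were measured beside these results. Of the erythroid list, 18 of 27 genes were tested, 0 passed and 4 rose at 0.05 (where 2.55% of all genes tested rose), with a median of 1.12 and summed levels of 403, 908 and 1544 CPM in the high-ratio pools and 274, 433 and 686 CPM in the low-ratio pools. These 4 include *Gata1*, the factor that erythroid cells and megakaryocytes share (log2 difference 1.84, SE 0.48, adjusted p = 0.0375), and the spectrin gene *Sptb* (2.06, SE 0.48, adjusted p = 0.0197). *Sptb* did not overlap between the groups, with 27.3, 38.3 and 98.1 CPM and 0.265, 8.06 and 25.5 CPM. Of 36 endothelial genes, 29 were tested and 1 rose (0.579% of all genes tested), *Esam*, an adhesion molecule that platelets also carry (2.15, SE 0.39, adjusted p = 0.00533 by edgeR), with summed levels of 458 to 945 CPM and 419 to 643 CPM. Of 26 granulocyte and mast cell genes, 11 were tested and 1 rose (0.579% of all genes tested), *Srgn*, the proteoglycan core of storage granules (1.37, SE 0.28, adjusted p = 0.00880).

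The sympathetic and neural crest list had 27 of 30 genes tested and 25 positive, with a median of 1.30, and 0 passed at either threshold. Its sum was 134, 422 and 5148 CPM in the high-ratio pools and 49.3, 406 and 696 CPM in the low-ratio pools, and the value of 5148 CPM belongs to the pool ranked 10, with 2259 CPM in the pool ranked 3. The mesenchymal list had sums of 499 to 3035 CPM and 64.5 to 1491 CPM, the urogenital list 33.6 to 398 CPM and 3.94 to 298 CPM, and the lymphoid list 935 to 2431 CPM and 1124 to 2012 CPM, with 0 genes of any of the 3 passing at either threshold. In the *Gata3*-GFP- HC pools the sympathetic sum was 8.32 to 100.3 CPM and the mesenchymal sum 21.4 to 236 CPM. The part of these RNAs in the differences between the groups was not tested. Of the remaining lists, cytokine receptors (31 of 33 tested, median −0.79), Src kinases and regulators around CD45 (41 of 43, median 0.11) and interferon response (24 of 30, median −0.32) had 0 calls, and the chemokine list (18 of 23, median −0.63) had *Pf4* and *Ppbp* as its 2 rises.

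**Figure D4:**
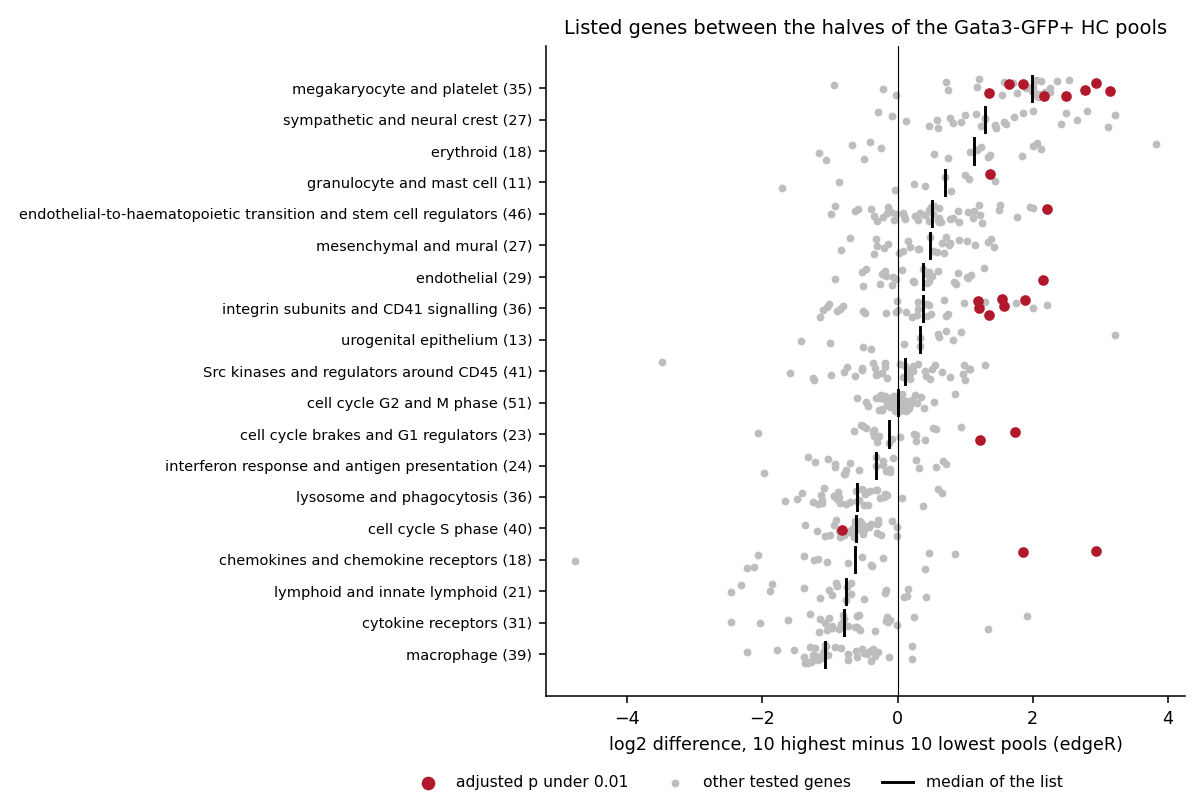
Log2 difference between the 10 high-ratio and 10 low-ratio *Gata3*-GFP+ HC pools (x axis, edgeR) for each tested gene of 19 lists (rows, with the number of genes tested), as points, with genes past an adjusted p of 0.01 in red and the median of each list as a bar. The megakaryocyte and platelet list has the highest median, 2.0, and the macrophage list the lowest, −1.07.

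The same split in *Gata3*-GFP- HCs, where the ratio ran lower, gave 2 rises among 13862 genes tested (0.0144%), *Smim1* and *Gm15915*, and 0 falls (0.0%, 775 genes at an unadjusted p under 0.05, edgeR), so few genes varied with the ratio there past the threshold. The ratio itself rested on few *Itga2b* counts in some of these pools, with 6, 2, 4 and 2 in those ranked 16, 18, 19 and 20. A pseudocount of 10 in place of 1 moved the ratio of the pool ranked 20 from −8.96 to −6.97. The part of these low counts in the comparison of the populations was not tested. Of the 84 genes that rose in *Gata3*-GFP+ pools, 79 were tested in *Gata3*-GFP- pools, 63 had the same sign (79.7%, against 51.0% of all genes positive there) and 0 passed. Their median log2 difference was 1.52 in *Gata3*-GFP+ pools and 0.23 in *Gata3*-GFP- pools. Of the 10 that fell, 9 were tested and 8 had the same sign (88.9%, against 49.0% of all genes negative), with medians of −0.93 and −0.13. The values that chose these genes came from the *Gata3*-GFP+ pools, so the difference in size is a description.

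The megakaryocyte and platelet list had a median log2 difference of 1.79 in *Gata3*-GFP- pools, against 2.0 in *Gata3*-GFP+ pools. Of the 32 genes tested in *Gata3*-GFP- pools, 26 were positive and 0 passed. The summed level of the list was highest in the *Gata3*-GFP- pools ranked 2 and 1, at 6828 and 4944 CPM. These pools also had the most *Itga2b*, 125 and 103 CPM. The other high-ratio *Gata3*-GFP- pools ran from 1478 to 3127 CPM and the low-ratio ones from 1413 to 3113 CPM. The part of the pools ranked 1 and 2 in the median was not tested. The gene for the partner chain of CD41 is given beside the 2 chemokine genes. *Itgb3* differed by 2.11 (SE 0.46, adjusted p = 0.0885 by edgeR) in *Gata3*-GFP- pools, with medians of 27.5 and 12.2 CPM. *Pf4* had medians of 488 and 490 CPM there, with a log2 difference of 0.79 (SE 0.50, adjusted p = 0.998), and *Ppbp* had 8.38 and 19.8 CPM (−0.26, SE 0.70, adjusted p = 0.999). The macrophage list had a median of −0.11 in *Gata3*-GFP- pools, and *C1qb* had medians of 1546 and 1755 CPM (−0.14, SE 0.13, adjusted p = 0.999).

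The difference between the populations was tested with an interaction of ratio group and GFP, and 0 of 16198 genes passed 0.01 in either direction (0.0% each, 1744 at an unadjusted p under 0.05 and 26, or 0.161%, at an adjusted p under 0.05, edgeR). With the ratio as a number, 43 genes passed, 14 with a steeper rise in *Gata3*-GFP+ pools (0.0864%) and 29 with a steeper fall (0.179%). Of the genes named here, *Cd9*, *Tln1*, *Flna*, *Tpm4* and *Dnmt3a* rose more steeply in *Gata3*-GFP+ pools, and *C1qb*, *Tyrobp*, *Aif1*, *Fcgr1*, *Lgmn* and *Ctsa*, the gene for the lysosomal cathepsin A, which shares exon bases with *Pltp* and, for 6.87%, *Neurl2*, fell more steeply. The slope of *C1qb* was −0.43 per unit of the log2 ratio in *Gata3*-GFP+ pools and −0.01 in *Gata3*-GFP- pools (difference −0.41, SE 0.08, adjusted p = 0.00807 by edgeR). The slope of *Tln1* was 0.23 and −0.02 (difference 0.26, SE 0.04, adjusted p = 0.00108). The 2 populations covered different stretches of the ratio, which rested on few *Itga2b* counts in some *Gata3*-GFP- pools. The part of either in these slopes was not tested.

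**Figure D5:**
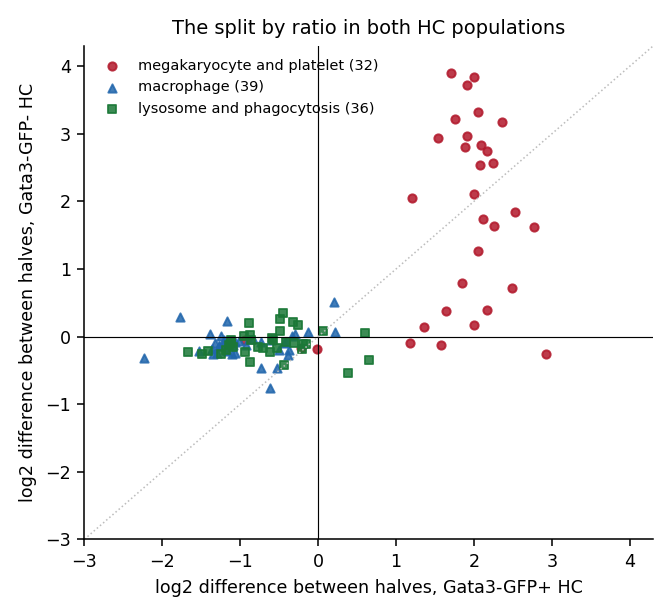
Log2 difference between high-ratio and low-ratio pools in *Gata3*-GFP+ HCs (x axis) and in *Gata3*-GFP- HCs (y axis, both by edgeR), with 1 point for each gene tested in both of the megakaryocyte and platelet (32), macrophage (39) and lysosome and phagocytosis (36) lists, and a dotted line where both are equal. Megakaryocyte and platelet genes lie mostly to the right and above 0, with 26 of 32 positive in *Gata3*-GFP- HCs, and macrophage genes mostly to the left and near 0 on the y axis, with a median there of −0.11.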

How the data were processed

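Smart-seq2 libraries with ERCC RNA were made by the authors from pools of 20 cells, and their deposited counts per gene were neither normalized nor filtered. The study names STAR, Ensembl release 81 and HTSeq, whereas the submitters' processing notes name GSNAP, HTSeq 0.5.3p3 and mm10, so the aligner is open. Strand setting and overlap mode are not given in the sources used here, so reads of overlapping genes may be shared. The table holds 46078 genes, of which 45229 were found in GENCODE M21 (GRCm38), the source of positions and exon overlaps. Rows that name no gene (unassigned or ambiguous reads) held 46.8% to 59.3% of the reads of *Gata3*-GFP+ HC pools and stayed out of totals and tests. The libraries were amplified and carry no molecular identifiers, so reads do not count molecules.

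Pools were grouped by their column labels. Genes that reached 10 counts in 5 or more of the 20 pools entered a robust quasi-likelihood fit in edgeR 4.0.16 (R 4.3.3) after TMM scaling. P-values were adjusted by Benjamini-Hochberg over every gene in the fit, with a threshold of 0.01 and standard errors from the F statistics. The other steps used Python 3.11.15 with pandas 2.3.3, scipy 1.17.1, numpy 2.4.6 and, for figures, matplotlib 3.10.9. The pools, the lists of genes and the tests were chosen with earlier results of these data known. The named genes were list members past the threshold or marking their list, the 10 largest rises and falls among calls that reached 10 counts in 8 or more pools of the higher group, and 14 precursor staging genes. *Il17f*, *Smim1*, *Gm15915*, *Laptm5*, *Itgb5*, *P2ry12* and the 8 genes of the closing observations were singled out after their values were seen. Alternatives were other size factors (DESeq2, ERCC), DESeq2 1.42.0's Wald test, other filters, thresholds and splits, added covariates and left-out pools. The steps were checked on simulated counts with known changes. The other 6 populations were not used here, and some genes of the lists are not reported by name.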

Additional observations from a re-analysis of the deposited data

Results flagged for a closer look

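Within the 10 high-ratio pools, single pools lay far from the others in several measures. A pool counted as far off when its gap to the nearest other pool, divided by the range of its group, passed Dixon's 95% limit for 10 values. Chance alone passes this limit in about 1 of 20 groups of normally distributed values, and groups cut by the ratio need not follow that rate. The limit was applied to several measures and many genes, so some passes by chance are likely. Such values were the 16004756 counts on genes (1.6e+07) and the mitochondrial share of 3.946% in the pool ranked 9. The ERCC share of 2.03% in the pool ranked 10 was another. The log2 ratio of 8.145 in the pool ranked 1 also passed, but the ratio formed the groups, so that pass is only a description.

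On the log2(CPM + 1) scale, the highest of the high-ratio pools stood apart for *Tln1* at 10.88 and *Il17f* at 0.3188. The lowest stood apart for the platelet genes *Ppbp* at 9.171 and *P2ry12* at 2.737, and for *Elovl7* at 1.829, *Tal1* at 2.869, *Runx1* at 4.205 and *Rad51ap1* at 1.881. The macrophage and lysosome genes formed the most frequent group, with the lowest high-ratio pool at 1.994 for *C1qa*, *Aif1* and *Fcgr1*, 4.045 for *C1qb* and *Ctss*, 4.121 for *Tyrobp*, 3.398 for *Csf1r*, 2.8 for *Spi1* and 5.104 for *Lgmn*. For these 9 genes the lowest pool was the pool ranked 1, which has 14 *Ptprc* counts.

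In the 10 low-ratio pools the lowest value stood apart for *Elovl7* at 0, *Capn3* at 1.57, *Meis1* at 4.3, *Ccnd3* at 6.022 and *Ctss* at 7.984. The highest stood apart for *Mrc1* at 10.61 and *Dnmt3a* at 7.97.

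The slope along the log2 ratio differed between *Gata3*-GFP+ and *Gata3*-GFP- HC pools for 11 of the named genes (edgeR's interaction test, adjusted p from 0.00108 to 0.00807). The slope in *Gata3*-GFP+ pools minus that in *Gata3*-GFP- pools was 0.3928 for *Cd9*, 0.2567 for *Tln1*, 0.1947 for *Flna*, 0.2497 for *Tpm4*, 0.2604 for *Dnmt3a*, −0.4079 for *C1qb*, −0.4059 for *Tyrobp*, −0.382 for *Aif1*, −0.3977 for *Fcgr1*, −0.3481 for *Lgmn* and −0.1996 for *Ctsa*. The pool ranked 1 lies outside the ratios of all other pools, and its part in these slopes was not tested.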

How the results depend on the processing

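Depth limits genes with few counts, such as *Spn*, *Gfi1* and *Sox17*, and pools were treated as independent although the labels do not tie them to embryos. Over the named genes and all settings but single left-out pools, the log2 difference kept its direction and its side of the threshold in 839 cases, was no longer past it in 164, was newly past it in 64 and turned in 18. No paired analysis was possible because the columns carry no replicate numbers and both groups come from 1 population.

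The 94 calls between the groups became 93 with DESeq2 size factors, 129 with at least 10 counts in 10 pools and 94 with a pseudocount of 10. They became 206 with 7 pools against 7, 486 by DESeq2's Wald test, 703 along the ratio, 161 and 159 with the gene to ERCC ratio or the log2 total as a covariate, 55 without a filter on low counts, and 485 at an adjusted p under 0.05. They became 265 when *Itga2b* alone split the pools, 252 without the pools over 2 times the median total, 30 without the pools ranked first and last, and 0 with ERCC size factors or when *Ptprc* alone split the pools (1559 and 1340 at an unadjusted p under 0.05, edgeR). Leaving out 1 pool gave 1 to 200. The alternative without pools under 10 counts of a marker was set up for the *Gata3*-GFP+ pools only and removed none of them. It was not run in *Gata3*-GFP- pools, where those ranked 16, 18, 19 and 20 had 6, 2, 4 and 2 *Itga2b* counts. In *Gata3*-GFP- HCs the 2 calls became 42 by DESeq2's Wald test, 0 along the ratio and 8 at 0.05, and the 0 interaction calls became 43 along the ratio and 26 at 0.05. The cause was not tested.

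Directions that turned belonged to genes not past the threshold, apart from *Il17f*, which was 0.651 when *Ptprc* alone split the pools. *Cdh5* was 0.07113 with 7 against 7, 0.09948 with the log2 total, 0.3925 with *Ptprc* alone and 0.05408 without the deepest pools. *Runx1* was 0.07604, 0.01383 along the ratio, 0.004215 with the log2 total, 0.01944 with *Itga2b* alone and 0.05016 without the deepest pools. *Spn* was −0.2038 along the ratio and −0.1481 with *Ptprc* alone, where *Kit* was 0.6247 and *Gata3* −0.3853. *Hoxa10* was −0.2308 with ERCC size factors. *Cdkn1c* was −0.1622 with the log2 total, −0.04005 with *Itga2b* alone and −0.06869 without the deepest pools. Leaving out 1 pool gave −0.3759 to 0.1088 for *Cdh5*, −0.4695 to 0.1706 for *Kit*, −0.3189 to 0.2616 for *Hoxa10* and −0.2211 to 0.4358 for *Cdkn1c*.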

Other observations

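Another 8 genes that rose in the high-ratio pools and stand in none of the lists are described here, chosen after their values were seen for what they are known to do. *Ly6g6f*, a surface receptor of platelets, had 82.7, 271 and 687 CPM (lowest, median and highest) in the high-ratio pools and 2.95, 46.9 and 106 CPM in the low-ratio pools, and 9 high-ratio pools were above every low-ratio pool (log2 difference 2.40, SE 0.48, adjusted p = 0.00873 by edgeR). *P2rx1*, an ATP-gated channel that platelets carry, had 99.2, 305 and 671 CPM against 29.2, 59.9 and 190 CPM (1.88, SE 0.36, adjusted p = 0.00750). *Gng11*, a G protein gamma subunit, had 70.1, 141 and 477 CPM against 18.6, 39.4 and 83.4 CPM (2.11, SE 0.34, adjusted p = 0.00367). *F11r*, the junction protein JAM-A, had medians of 153 and 52.3 CPM (1.52, SE 0.25, adjusted p = 0.00428), and *Bcl2l1*, the gene for the survival factor Bcl-xL, of 81.2 and 30.6 CPM (1.44, SE 0.27, adjusted p = 0.00606).

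Genes of the actin skeleton and a DNA methyltransferase were among them. *Tpm4*, a tropomyosin gene that shares 6.08% of its exon bases with *Gm26586*, had 681, 1249 and 2728 CPM in the high-ratio pools and 293, 530.2 and 846 CPM in the low-ratio pools (log2 difference 1.25, SE 0.22, adjusted p = 0.00498 by edgeR). *Flna*, the actin crosslinker filamin A, had medians of 697 and 365 CPM (0.98, SE 0.19, adjusted p = 0.00858). *Dnmt3a*, which adds methyl groups to DNA, had medians of 266 and 141 CPM (0.93, SE 0.17, adjusted p = 0.00533). In *Gata3*-GFP- HC pools the log2 differences were 3.59 for *Ly6g6f*, 0.29 for *P2rx1*, 0.34 for *Gng11*, −0.42 for *F11r*, −0.08 for *Bcl2l1*, 0.02 for *Tpm4*, −0.08 for *Flna* and −0.27 for *Dnmt3a*, with adjusted p-values from 0.275 to 0.999 (edgeR).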
